A study of Drosophila melanogaster with 25 samples.

Results

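The comparison described here set RNA sequencing of wing imaginal discs from larvae heterozygous for the RpS3[Plac92] allele against wild-type discs. Its members are 10 of the 19 libraries in the series, 2 of RpS3 discs and 8 of wild-type (WT) discs, and they were taken by the group that the labels give each sample. The RpS3 larvae were FRT82B, RpS3[Plac92], ubi-GFP/+, so the mutant chromosome also carried a recombination site (FRT82B) and a ubiquitously expressed green fluorescent marker (ubi-GFP). Of the WT libraries, 6 (WT1 to WT4, WT7 and WT8) were from yw larvae, and 2 (WT5 and WT6) were from FRT82, ubi-GFP larvae, the only WT libraries with the site and the marker. Each sample pooled 50 discs from wandering larvae of the third instar kept at 25 °C, so a library measures a pool and the spread between libraries does not show how single discs vary. The same series also profiled discs with a second RpS3 allele, RpS3* (FRT82B, RpS3*/+, 2 libraries), which is used below only where the alleles were compared.

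RpS3 is a protein of the small ribosomal subunit. Heterozygous mutations in many Drosophila ribosomal protein genes give the Minute phenotype, with delayed development and thin bristles, and Minute cells are viable on their own but are eliminated as losers when they grow beside wild-type cells, a process called cell competition. Because whole discs of 1 genotype were sequenced, no wild-type neighbours were present, and the profile is that of prospective losers before any competition. Both RpS3 libraries and both sorts of WT library were from unselected discs, which hold the disc epithelium together with myoblasts and attached trachea, and in such bulk RNA fewer cells of a type and less RNA per cell cannot be told apart.

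The values are FPKM, which scale the fragments counted on a gene to the length of its transcripts and to the total of the library. The depth implied by the smallest steps in the values was 12122876 to 16970372 reads in WT, with 16093598 and 16227443 reads in the RpS3 libraries, so that a single read on a 1 kb transcript corresponded to 0.0589 to 0.0825 FPKM. The RpS3 libraries were more like each other (Spearman's rho 0.996 over genes) than any WT libraries were (0.965 to 0.993), and their rho with the WT libraries was 0.960 to 0.983. They were nevertheless separate libraries, since a chi-square test of their read counts gave 5.13 per gene, where sampling alone gives about 1, although no WT pair was as close (11.7 or more). By the labels WT1 and WT2 had 2 sequencing runs and the other 8 libraries had 1. The sample description gives the values of WT1 as both runs pooled, although their column header names run 1 only. The disc markers were present in all 10 libraries, with summed levels of 579 to 698 FPKM in WT and 572 and 585 in RpS3 for 9 epithelial genes. The labels name separate samples but no separate cultures or parents, so the p-values measure the spread between these pools only. Markers of other tissues were also detected, and the 6 fat body genes summed to 34.9 to 318 FPKM in WT and to 119 and 140.2 in RpS3.

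One WT library stood apart from its label. The eye pigment transporter gene white (w) is mutant in yw flies and is carried as a marker by many transgenes. It was at 0 to 0.0547 FPKM in 5 of the 6 yw libraries, but at 26.3 in the library labelled WT4 (yw), next to 24.8 and 29.2 in WT5 and WT6 (FRT82, ubi-GFP) and 26.0 and 26.8 in RpS3. In the RpS3* libraries it was at 0.448 and 0.244 FPKM. Without the library labelled WT4 the comparison below gave 1179 calls in place of 1498, 1155 of them shared. Against the 6 yw libraries alone 1683 genes were called, 1336 of them shared, and against the FRT82, ubi-GFP libraries alone 1527, 958 of them shared.

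The targeted gene was checked first. RpS3 (FBgn0002622, arm 3R, 23358812 to 23360207 in the BDGP6.54 annotation) lay at 2057, 2355 and 3023 FPKM in WT, as the lowest, median and highest of the 8 libraries, and at 1344 and 1314 in the RpS3 libraries. Both RpS3 libraries were below all 8 WT libraries (log2 fold change -0.88 ± 0.13 (SE), adjusted p = 0.0011), and the mean was 0.541 of that in WT. Log2 fold changes here are on the log2(FPKM + 1) scale, which understates the change of weakly expressed genes, and adjusted p-values are over all genes tested by limma.

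Among the 8 other tested genes within 100 kb of RpS3, 2 passed the threshold of an adjusted p under 0.1, as 18.6% of all genes tested did. Within 250 kb the same 2 passed, of 20 tested. CG42827, whose midpoint is 13752 bp from that of RpS3, was at 0 to 0.223 FPKM in WT and at 4.19 and 3.87 in the RpS3 libraries. It entered the test through the RpS3 libraries alone, so its call adds no support. CG4374, 80971 bp away, fell by 0.88 on the log2 scale (adjusted p = 0.0052), from 4.96 to 9.16 FPKM in WT to 3.36 and 3.49. The nearest genes, Sec13 and ATPsynCF6, did not pass (log2 fold changes 0.23 and 0.42, adjusted p = 0.28 and 0.11). Over the chromosome arms the share of tested genes that passed was 17.5% on 2L, 17.8% on 2R, 17.9% on 3L, 19.7% on 3R, where RpS3 lies, and 20.4% on X. On chromosome 4 it was 11.1%, 7 of 63 genes, 3 higher and 4 lower, with a median log2 fold change of -0.18 beside 0.082 to 0.11 on the other arms.

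Of the 34 tested genes for small-subunit ribosomal proteins, 2 fell and none rose (5.88%, near the 4.17% of all genes tested that fell). Besides RpS3 itself, RpS27A, which encodes a fusion of ubiquitin and a ribosomal protein, lay at 3859, 4189.9 and 5527 FPKM in WT (lowest, median and highest) and at 3228 and 3087 in RpS3 (log2 fold change -0.45 ± 0.13 (SE), adjusted p = 0.042). The median log2 fold change of the list was 0.015, and this centre depended on scaling, since it was -0.086 with median of ratios scaling and -0.20 with the trend of fold change on transcript length removed, where 10 small-subunit genes were lower. Of 50 large-subunit genes, 2 rose, where 14.4% of all genes did, RpL22-like (log2 fold change 0.46 ± 0.16) and RpLP0-like (0.36 ± 0.12), the second of which encodes a ribosome assembly factor rather than a subunit. This direction turned with the scaling, since median of ratios scaling gave 0 higher and 2 lower, and removing the length trend gave 0 higher and 9 lower. No large-subunit gene passed without WT3 or when either RpS3 replicate was left out, 1 rose without WT2 or without WT8, and 10 rose without WT6 and WT7. Of the small-subunit genes, 1 fell when either RpS3 replicate was left out (RpS3 itself, adjusted p = 0.048 and 0.031), and 3 rose without WT6 and WT7. Rack1, which encodes a scaffold protein of the small subunit and stood outside both lists, fell from a WT range of 2027–3081 FPKM to 1694 and 1646 (log2 fold change -0.52 ± 0.14 (SE), adjusted p = 0.037).

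Across the genome, 1498 of 8053 tested genes (18.6%) differed between RpS3 and WT discs, 1162 (14.4%) of them higher and 336 (4.17%) lower. At the stricter adjusted p under 0.05, 827 genes (10.3%) differed. Most changes were small, with a median log2 fold change of 0.45 among the genes that rose and -0.53 among those that fell. A change of at least 1 on the log2 scale was seen in 155 of the genes that rose and 32 of those that fell, and a change of at least 2 in 45 and 0. In 1053 of the 1162 and in 302 of the 336, both RpS3 libraries lay outside the range of all WT libraries, against 25.1% of all genes tested.

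The excess of higher genes depended on how the libraries were put on one scale. Higher genes made up 77.6% of the calls with FPKM as deposited, 55.8% after median of ratios scaling (652 higher and 516 lower) and 58.6% after removal of the length trend (784 and 554). Fold changes went with transcript length: from the fifth of genes with the shortest transcripts to that with the longest, the median log2 fold change was 0.22, 0.18, 0.11, 0.048 and -0.056, and the share that rose was 18.6%, 20.8%, 15.8%, 12.3% and 4.71%. Single libraries also set the number of calls. It was 135 without RpS3 replicate 1 and 329 without RpS3 replicate 2, where a group of 1 was assumed to vary like WT, 2524 without WT7 and 773 higher genes in place of 1162 without WT3. WT7 was the WT library nearest to RpS3, the highest or lowest of the 8 in the direction of the change, for 504 of the genes that rose and 124 of those that fell. No gene called in the full comparison changed its direction under any of the alternatives.

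**Figure D1:**
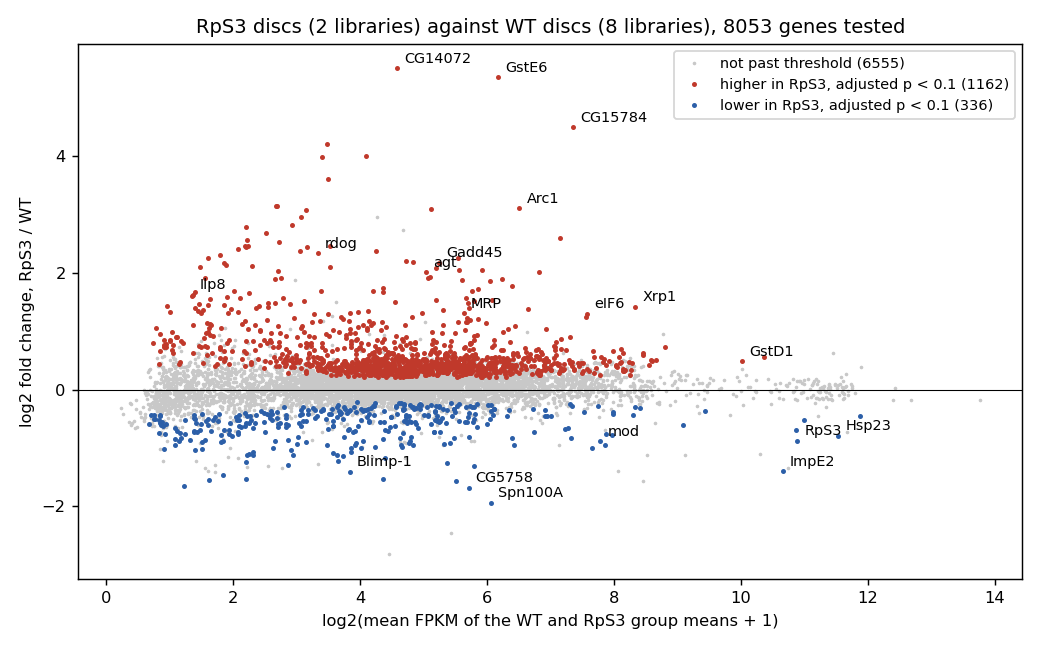
Each point is 1 of 8053 genes, with the log2 of the mean of both group means in FPKM plus 1 on the x axis and the log2 fold change of RpS3 over WT on the y axis. Red points (1162) and blue points (336) passed an adjusted p under 0.1. The largest rises reach 5.51 and lie at low to moderate levels, whereas no blue point lies below -2.

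Several of the largest rises were in genes almost silent in WT discs. CG14072 was at 0 in 6 WT libraries and at most at 0.0876 FPKM in the other 2, against 51.9 and 39.8 FPKM in RpS3 (log2 fold change 5.51 ± 0.14 (SE), adjusted p = 1.27e-10). GstE6, which encodes a glutathione S-transferase, lay at 1.28, 2.36 and 3.97 FPKM in WT (lowest, median and highest) and at 168 and 110.3 in the RpS3 libraries (log2 fold change 5.35 ± 0.24 (SE), adjusted p = 3.27e-08). CG15784 lay at 10.7, 12.2 and 20.9 FPKM in WT and at 354 and 271 in RpS3, the highest level among these rises. These genes were chosen for the size of the rise and for RpS3 libraries above every WT library, so their values are a description. CG14072 reached 1 FPKM in the RpS3 libraries alone. It therefore entered the test through the group in which it was high, and its p-value adds no support.

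A further group of low-abundance genes rose in the same manner. CG14695 went from a WT range of 0.0577–0.321 FPKM to 21.6 and 18.9, Cyp6d2, encoding a cytochrome P450, from 0.459–1.90 FPKM to 35.6 and 26.9, and AOX1, encoding an aldehyde oxidase, from 0.137–0.466 FPKM to 22.5 and 15.1. Snap25, which encodes a synaptic membrane fusion protein, rose from a WT range of 0.173–0.481 FPKM to 11.5 and 9.49. Like CG14072, the genes CG14695, AOX1 and Snap25 entered the test through the RpS3 libraries alone. Arc1 and Arc2, neighbouring genes that encode capsid-forming relatives of retrotransposon Gag proteins, rose together. Arc1 lay at 13.8, 17.5 and 22.7 FPKM in WT and at 173 and 151 in RpS3, and Arc2 at 4.64, 5.98 and 9.12 FPKM and at 65.7 and 56.98, with log2 fold changes of 3.11 ± 0.15 and 3.09 ± 0.19. These paralogs resemble each other, so reads may have been split between them.

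In 3 of the 12 largest rises the WT group itself was split. Hsc70-2, a heat shock protein cognate, was at 17.8 FPKM in the library labelled WT4 and at most 0.314 in the other 7 WT libraries, against 18.2 and 18.1 in RpS3 (log2 fold change 3.60 ± 1.01 (SE), adjusted p = 0.055). Cyp6a17 was at 4.99 FPKM in the library labelled WT4 and at most 0.037 in the other WT libraries, against 9.93 and 10.6 in RpS3. Gr64a, a gustatory receptor gene, was at 7.31 and 7.80 FPKM in WT5 and WT6, the FRT82, ubi-GFP libraries, and at most 0.173 in the 6 yw libraries, against 14.9 and 12.9 in RpS3. With the FRT82, ubi-GFP libraries as the only controls, the log2 fold change of Gr64a was 0.79 in place of 3.07, so most of its rise was seen against yw, and without the library labelled WT4 it did not pass (adjusted p = 0.13). Hsc70-2 passed without the library labelled WT4 (log2 fold change 4.11) but not when either RpS3 replicate was left out (adjusted p = 0.35 and 0.29). The part of the genetic background in these 3 genes was not tested further.

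Many genes of detoxification rose in RpS3 discs. Glutathione S-transferases (GSTs) conjugate glutathione to reactive compounds, cytochrome P450 enzymes oxidise them, and ATP-binding cassette (ABC) transporters export the products. Of 26 tested GST genes 12 rose and 1 fell, of 27 P450 genes 9 rose and 1 fell, and of 7 ABC exporter genes 3 rose and none fell, against 14.4% and 4.17% of all genes. Among these rises, Cyp6g2, Cyp6t3, Cyp6a23 and Mrp4 were under 1 FPKM in every WT library. They entered the test through the RpS3 libraries alone and add no support to these counts. The median log2 fold changes of these lists were 0.36, 0.27 and 0.66, beside 0.092 over all genes tested.

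The GST genes that rose most lie in 1 cluster, the GstE genes. After GstE6 came GstE7, from a WT range of 0.216–2.12 FPKM to 12.3 and 8.22, GstE8, from 1.21–5.36 FPKM to 19.8 and 16.8, and GstE5, from 3.77–7.85 FPKM to 36.5 and 25.3, with log2 fold changes of 2.53 ± 0.27, 2.46 ± 0.36 and 2.38 ± 0.24. GstE3 (1.57) and GstE1 (1.10) also rose, while GstE11 (0.22), GstE12 (0.37) and GstE13 (0.078) did not pass. GstD1, a widely used reporter of oxidative stress and the most abundant gene of the family, lay at 748, 817 and 1119.7 FPKM in WT and at 1206 and 1204 in RpS3 (log2 fold change 0.49 ± 0.14 (SE), adjusted p = 0.044). The change of GstD1 was 1.39-fold, small beside that of the GstE genes, but both RpS3 libraries were above all 8 WT libraries. GstD4 fell by 0.63 on the log2 scale. The genes of such a cluster are related in sequence, as are Cyp6a17 and Cyp6a23, and how shared reads were assigned is not given in the sources used here.

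Among the P450 genes, Cyp6g2 and Cyp6t3, which are adjacent, rose from at most 0.302 and 0.535 FPKM in WT to 5.15 and 4.40 and to 5.28 and 4.55. The exporter gene rdog lay at 2.13, 2.23 and 2.82 FPKM in WT and at 18.2 and 13.5 in RpS3 (log2 fold change 2.34 ± 0.13 (SE), adjusted p = 1.88e-07), MRP, a multidrug resistance protein gene, at 24.3, 27.2 and 30.7 FPKM and at 81.2 and 58.7 (log2 fold change 1.31 ± 0.11 (SE), adjusted p = 9.83e-06), and Mrp4 rose from a WT range of 0.158–0.663 FPKM to 1.38 and 1.02. The white gene described above belongs to the same list (log2 fold change 2.95) and did not pass. Of 8 UDP-glycosyltransferase genes, which attach sugars to small molecules, 2 rose (25.0%, against 14.4% of all genes) and none fell. They were Ugt302K1 (log2 fold change 2.05 ± 0.43) and Ugt302C1 (0.84 ± 0.10). Without RpS3 replicate 1 and 2 the values were 2.05 and 2.04 for Ugt302K1 and 0.72 and 0.955 for Ugt302C1. The only P450 gene that fell was shd (log2 fold change -0.61), which encodes the enzyme that makes active 20-hydroxyecdysone.

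In Drosophila many such enzymes are targets of CncC, the homologue of vertebrate Nrf2, an activator held back by Keap1. The transcript of cnc itself lay at 18.3, 29.9 and 33.8 FPKM in WT and at 23.3 and 26.2 in RpS3 (adjusted p = 0.44), with WT6 below both RpS3 libraries and the other 7 WT libraries, at 27.3 FPKM or more, above both. It passed as lower against the yw libraries alone (log2 fold change -0.30, adjusted p = 0.065), without WT6 (-0.29, adjusted p = 0.052) and without WT6 and WT7 (-0.32, adjusted p = 0.013). The regulator gene Keap1 lay at 6.64, 7.16 and 8.21 FPKM in WT and at 7.85 and 7.13 in RpS3 (adjusted p = 0.88). Of 29 genes of the CncC pathway and of redox metabolism, none fell, where 4.17% of all genes did, and 11 rose (37.9%, against 14.4% of all genes). These were AOX1, Aldh, AOX3, Men, Prx2, Gclc, GstD1, Sod2, Prx5, Prx6a and ref(2)P. As stated above, AOX1 entered the test through the RpS3 libraries alone, so it adds no support to this count. Aldh, an aldehyde dehydrogenase gene, rose from a WT range of 4.58–20.2 FPKM to 53.8 and 36.5, Prx2, encoding a thioredoxin peroxidase, from 273–479.7 FPKM to 595 and 512, and Gclc, encoding the catalytic subunit of the first enzyme of glutathione synthesis, from 5.89–7.93 FPKM to 10.8 and 10.1. Gclm, encoding the modifier subunit, was above all WT libraries, with 30.7 and 31.3 FPKM against 18.6 to 30.3, but did not pass (adjusted p = 0.13). Catalase (Cat, log2 fold change -0.40) and Sod1 (0.22) did not pass either.

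The list counts rested on both RpS3 libraries. Without RpS3 replicate 1, 5 GST, 1 P450 and 1 redox gene rose, and without RpS3 replicate 2 the counts were 8, 3 and 3, while the medians were 0.33, 0.068 and 0.23 in the first case and 0.34, 0.12 and 0.23 in the second. Median of ratios scaling gave 10 higher and 2 lower redox genes and removal of the length trend 8 and 2, and without WT6 and WT7 19 rose and 2 fell. The falls of GstD4 and shd did not pass when either RpS3 replicate was left out, nor did that of GstD4 without WT3, WT4, WT5 or WT8, nor that of shd without WT2, WT3 or WT4.

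**Figure D2:**
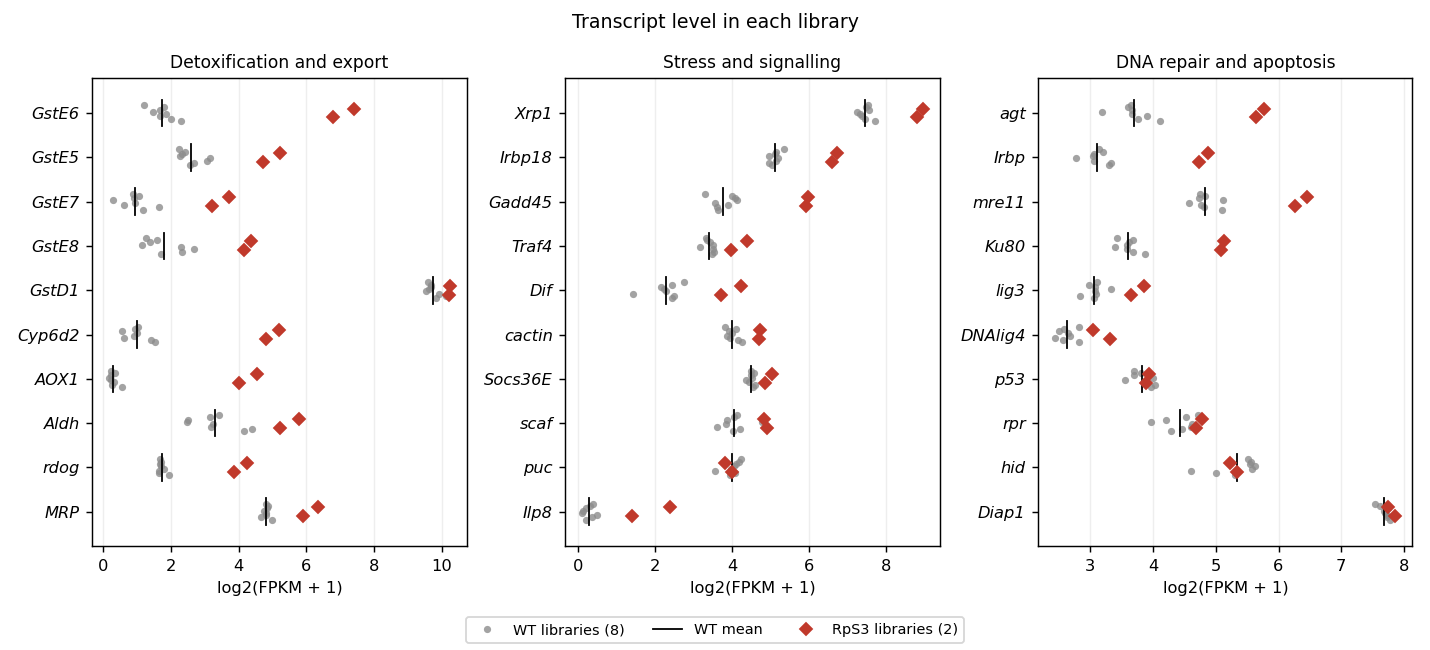
Levels of 30 genes as log2(FPKM + 1) on the x axes, with 1 grey circle for each of 8 WT libraries, a black line at the WT mean and red diamonds for the 2 RpS3 libraries. The diamonds lie to the right of all circles for the GstE genes, Xrp1, Irbp18, Gadd45, agt, Irbp, mre11 and Ku80, and among the circles for puc, p53 and hid.

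The transcription factor gene Xrp1 and the gene for its partner were raised. Xrp1, a basic leucine zipper protein required for the elimination of Minute cells, forms dimers with Irbp18. Xrp1 lay at 149.9, 176 and 207 FPKM in WT (lowest, median and highest) and at 492 and 446 in RpS3 (log2 fold change 1.42 ± 0.11 (SE), adjusted p = 5.52e-06). Irbp18 lay at 30.04, 33.9 and 39.7 FPKM in WT and at 104 and 94.6 in RpS3 (log2 fold change 1.54 ± 0.10 (SE), adjusted p = 1.23e-06). The means were 2.68-fold and 2.95-fold those of WT, and no WT library came near the RpS3 level of either gene.

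In the list of 19 genes that joins both to the integrated stress response, in which kinases phosphorylate eIF2alpha and so lower translation, 6 rose and 1 fell (31.6% and 5.26%, against 14.4% and 4.17% of all genes). The other rises were PEK, the kinase of the endoplasmic reticulum branch (log2 fold change 0.52 ± 0.078), Nmdmc, a mitochondrial folate enzyme (0.67 ± 0.20), trbl (0.40) and eIF2alpha (0.33). The transcript of crc, the ATF4 homologue that acts downstream, lay within the WT range at 655 and 733 FPKM against 597 to 789 (adjusted p = 0.86), as did Thor, the 4E-BP gene, at 13.4 and 16.8 against 11.1 to 23.5 (adjusted p = 0.95). Hsc70-3, the chaperone BiP, fell (log2 fold change -0.31 ± 0.0998 (SE), adjusted p = 0.067). Without RpS3 replicate 1 or without replicate 2, 3 genes of the list rose, Xrp1 and Irbp18 among them in both cases, and the fall of Hsc70-3 did not pass in either case, nor without WT2, WT3 or WT4.

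Many DNA repair genes rose. Of 43 tested genes for DNA break repair and checkpoints 21 rose and none fell, which is 48.8% against 14.4% of all genes, and the median log2 fold change was 0.32. The largest change was that of agt, encoding the alkyltransferase that repairs methylated guanine, from 8.09, 11.7 and 16.4 FPKM in WT to 53.5 and 49.2 in RpS3 (log2 fold change 2.02 ± 0.17 (SE), adjusted p = 9.83e-06). Both subunits of Ku, which binds broken DNA ends for end joining, rose: Irbp (Ku70) went from a WT range of 5.83–9.11 FPKM to 28.4 and 25.6 (log2 fold change 1.69 ± 0.13 (SE), adjusted p = 3.44e-06), and Ku80 from 9.47–13.6 FPKM to 34.2 and 32.9 (log2 fold change 1.51 ± 0.11 (SE), adjusted p = 2.99e-06).

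Of the nuclease complex that processes breaks, mre11 lay at 22.7, 26.5 and 33.5 FPKM in WT and at 86.5 and 75.9 in RpS3 (log2 fold change 1.53 ± 0.13 (SE), adjusted p = 9.83e-06), while rad50 (log2 fold change 0.61) and nbs (0.33) rose less. The ligase genes lig3 and DNAlig4 rose by 0.68 ± 0.11 and 0.54 ± 0.12. All 3 subunits of replication protein A, which coats single-stranded DNA, were among the rises (RPA1 0.87, RPA2 0.70 and RPA3 0.51), as were Parp1 (1.19), PolZ1 (0.80) and RnrL (0.61). The checkpoint kinase genes tefu (0.012), mei-41 (0.060), lok (0.077) and grp (-0.018) did not pass. Without RpS3 replicate 1, 6 of these genes rose, and without replicate 2, 9 did, whereas median of ratios scaling left 17.

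Apoptosis genes did not pass in limma. None of 14 did at an adjusted p under 0.1, where 18.6% of all genes tested did, and 2 had an unadjusted p under 0.05. In a list of 14 genes this lack of calls says little. The pro-apoptotic gene rpr lay at 14.6, 21.5 and 25.3 FPKM in WT and at 26.6 and 24.8 in RpS3 (adjusted p = 0.21), hid at 23.4, 45.2 and 48.5 FPKM and at 36.6 and 39.3 (adjusted p = 0.89), and the inhibitor Diap1 at 184, 209 and 218 FPKM and at 214 and 232 (adjusted p = 0.38). The RpS3 values of all 3 overlapped the WT values. The p53 transcript was at 14.2 and 13.8 FPKM in RpS3 against 10.7 to 15.4 in WT (adjusted p = 0.68). Without WT6 and WT7, 2 of the list rose and 1 fell (hid, log2 fold change -0.24, adjusted p = 0.057), and 1 rose without the library labelled WT4 or with the length trend removed.

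Single genes of the stress signalling pathways rose. Of 22 genes of the Jun N-terminal kinase (JNK) pathway 3 rose and none fell (13.6%, near the 14.4% of all genes). Gadd45, which encodes an activator of JNK pathway kinases, lay at 8.82, 12.6 and 16.4 FPKM in WT and at 61.9 and 59.4 in RpS3 (log2 fold change 2.18 ± 0.19 (SE), adjusted p = 9.83e-06). The adaptor gene Traf4 rose to 19.9 and 14.7 FPKM from 7.96 to 10.4 (log2 fold change 0.78 ± 0.12), and POSH, a scaffold gene, to 38.5 and 34.96 from 24.7 to 30.3 (0.40 ± 0.087). The kinase gene bsk and the feedback phosphatase gene puc were within or next to the WT range, puc at 13.00 and 14.97 FPKM against 10.7, 15.6 and 17.7 FPKM in WT (adjusted p = 0.66).

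Of 15 JNK targets 2 rose and none fell (13.3%, near the 14.4% of all genes). They were scaf, from a WT range of 11.1–26.2 FPKM to 27.2 and 29.1 (log2 fold change 0.81 ± 0.22 (SE), adjusted p = 0.037), and Ilp8, while Mmp1 was at 29.9 and 30.2 FPKM against 26.4 to 35.8 (adjusted p = 0.94). Ilp8, a relaxin-like hormone that delays metamorphosis when discs are damaged, was at 0.0747, 0.183 and 0.408 FPKM in WT and at 4.23 and 1.63 in RpS3 (log2 fold change 1.63 ± 0.22 (SE), adjusted p = 6.75e-04). The RpS3 libraries differed from each other by more than the whole WT range, but both were above it. Ilp8 entered the test through these libraries alone, so its p-value adds no support. Neither JNK target passed when either RpS3 replicate was left out, where Ilp8 was under the level needed for the test.

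For JAK/STAT signalling, 2 of 13 genes rose and none fell (15.4%, near the 14.4% of all genes): Socs36E, a target and inhibitor of the pathway, from a WT range of 19.3–23.2 FPKM to 31.5 and 27.8 (log2 fold change 0.44 ± 0.083 (SE), adjusted p = 0.006), and ken, a transcriptional repressor, from 10.02–20.97 FPKM to 23.2 and 22.3 (log2 fold change 0.65 ± 0.23 (SE), adjusted p = 0.093). The ligand genes were weakly expressed. The ligand upd1 was above all WT libraries at 4.32 and 4.06 FPKM against 2.67 to 3.88 but did not pass (adjusted p = 0.21). Both RpS3 libraries were also above all WT libraries for upd3, at 1.65 and 0.916 against 0.232 to 0.531. It reached 1 FPKM in 1 library only, too few to enter the test. The ligand upd2 was at 0.690 and 0.249 against 0.131 to 0.455, and was not tested either. Stat92E was at 68.98 and 67.6 FPKM against 47.1 to 75.8 (adjusted p = 0.68).

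For Toll signalling, 2 of 19 genes rose and 1 fell, where 14.4% of all genes rose and 4.17% fell. Dif, an NF-kappaB family transcription factor gene, lay at 1.67, 4.12 and 5.69 FPKM in WT and at 17.7 and 12.02 in RpS3 (log2 fold change 1.69 ± 0.26 (SE), adjusted p = 0.0016), and cactin, whose product binds the NF-kappaB inhibitor Cactus, at 13.1, 14.7 and 17.9 FPKM and at 25.2 and 24.9 (log2 fold change 0.70 ± 0.11 (SE), adjusted p = 0.0015). NT1 (spz2), encoding a ligand of the Spätzle family, was the one that fell (log2 fold change -0.73 ± 0.17 (SE), adjusted p = 0.020). The inhibitor gene cact did not pass (adjusted p = 0.14), and of the 19 antimicrobial peptide genes matched only 2 were expressed enough to be tested, neither of which passed. The JAK/STAT count was 0 without RpS3 replicate 1, 1 without RpS3 replicate 2 or any of WT2 to WT5, and 4 without WT7. The Toll count was 4 higher and 3 lower without WT7 and 4 higher without WT8, and without RpS3 replicate 1 the fall of NT1 did not pass and the JNK pathway had 1 rise.

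Many ribosome biogenesis genes rose. Of 37 tested genes 23 rose and 1 fell (62.2% and 2.70%, against 14.4% and 4.17% of all genes), with a median log2 fold change of 0.36. The largest rise was that of eIF6, an assembly factor of the large subunit that keeps it from joining the small one, which lay at 82.2, 106 and 152 FPKM in WT and at 295 and 243 in RpS3 (log2 fold change 1.30 ± 0.19 (SE), adjusted p = 0.0012). Nle, needed for large subunit maturation, rose from a WT range of 23.2–32.6 FPKM to 46.4 and 41.5, nclb from 55.4–88.9 FPKM to 108 and 95.6 and Nop60B, the pseudouridine synthase of box H/ACA particles, from 192–283 FPKM to 339 and 291. The one gene that fell was mod, encoding the nucleolar protein Modulo, from 248, 285 and 314 FPKM in WT to 165 and 144 in RpS3 (log2 fold change -0.88 ± 0.097 (SE), adjusted p = 1.08e-04). Fib, the box C/D methyltransferase gene, was at 273 and 229 FPKM against 139 to 266 and did not pass (adjusted p = 0.16).

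Genes of the polymerase I subunits Polr1A, Polr1B, Polr1C and Polr1F were among the rises (log2 fold changes 0.27, 0.35, 0.58 and 0.40). With median of ratios scaling 14 of the list rose, without RpS3 replicate 1 only 2, and without replicate 2 only 8. The fall of mod passed in all of these, with log2 fold changes of -0.98 and -0.79 without RpS3 replicate 1 and 2.

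Of 42 initiation, elongation and release factor genes 8 rose and none fell, where 14.4% of all genes rose, a group that holds eIF2alpha, eIF2beta and eIF2gamma, the 3 subunits of the factor that brings the initiator tRNA, and eIF2D (log2 fold change 0.80 ± 0.10). The transcript of eIF2beta, the most abundant of these, lay at 292, 315 and 377 FPKM in WT and at 463 and 435 in RpS3 (log2 fold change 0.48 ± 0.11 (SE), adjusted p = 0.014). The eIF3 genes tested were between -0.18 (eIF3b) and 0.28 (eIF3k), and none passed. Median of ratios scaling gave 3 higher and 2 lower, and removal of the length trend 4 and 6, so the list had no direction common to all scalings. Of 19 aminoacyl-tRNA synthetase genes 9 rose and none fell (47.4%), led by AlaRS (0.44 ± 0.084) and beta-PheRS (0.40 ± 0.12), with 2 higher and 1 lower after median of ratios scaling. Both lists had few or no rises without RpS3 replicate 1 (2 and 0) or replicate 2 (2 and 1). Leaving out WT2 or WT3 left 4 translation factor genes and 5 synthetase genes, and 4, 4 and 5 translation factor genes rose without WT4, WT5 and WT1, while 3 fell without WT7.

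Mitochondrial genes had small positive changes, of which a part passed. Of 69 oxidative phosphorylation genes, 67 had a log2 fold change above 0, where 5177 of all 8053 genes tested did. Of the 69, 21 rose (30.4%, against 14.4% of all genes) and none fell, with a median of 0.40, beside 0.092 over all genes. The largest rises were those of ox, encoding a subunit of complex III, from 78.9, 96.8 and 148 FPKM in WT to 172 and 158 in RpS3 (log2 fold change 0.75 ± 0.19 (SE), adjusted p = 0.027), and COX4, a subunit of complex IV, from 159.6, 206 and 279 FPKM to 359 and 318 (log2 fold change 0.69 ± 0.17 (SE), adjusted p = 0.025). RFeSP, the iron-sulphur protein of complex III, and ATPsynB, a subunit of ATP synthase, rose by 0.65 ± 0.21 and 0.63 ± 0.18. The genes that passed came from complexes I to IV and ATP synthase.

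Of 71 mitochondrial ribosomal protein genes, 70 were above 0, where 5177 of all 8053 genes tested were. Of the 71, 12 rose (16.9%, near the 14.4% of all genes), led by mRpL42 (0.78 ± 0.22) and mRpS14 (0.62 ± 0.22). The WT libraries set these counts. Without WT7, 49 oxidative phosphorylation and 48 mitochondrial ribosomal protein genes rose, without WT6 40 and 28, and without both 61 and 63. In WT7 the transcript of ox was at 148 FPKM, against at most 106.7 in the other WT libraries. Leaving out WT3 gave 12 and 6, leaving out WT2 gave 6 in the second list, leaving out WT4 or WT5 gave 7 there, and leaving out RpS3 replicate 1 gave 0 and 0 and replicate 2 gave 0 and 1. The genes of both lists have short transcripts, and the median was 0.20 and 0.11 with the length trend removed, with 17 higher in the first list, and 7 higher and 2 lower in the second. The part of transcript length and of WT6 and WT7 in these rises was not tested further.

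Of 47 cell cycle and replication genes 10 rose and none fell (21.3% against 14.4%). They were replication genes for the most part: PCNA, the sliding clamp, lay at 286, 323 and 448 FPKM in WT and at 468 and 476 in RpS3 (log2 fold change 0.51 ± 0.14 (SE), adjusted p = 0.039), and Orc6, PolD1 and Mcm5 rose by 0.47 ± 0.16, 0.44 ± 0.12 and 0.42 ± 0.13. Cyclin E (CycE, 28.1 and 28.1 FPKM against 24.9 to 33.2), the Cdc25 gene stg (84.6 and 80.5 against 56.97 to 85.7) and the inhibitor gene dap (49.7 and 52.8 against 28.7 to 54.5) did not pass. None of the 10 passed without RpS3 replicate 1 or without replicate 2, 6 rose without WT2 and 6 without WT3, 16 rose and 1 fell without WT6 and WT7, and 4 rose after median of ratios scaling.

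No proteasome gene of 34 passed in limma, where 18.6% of all genes tested did. Of the 34, 33 had a log2 fold change above 0, and the median was 0.21. Of all 8053 genes tested, 5177 were above 0, and their median was 0.092. An unadjusted p under 0.05 was seen for 6 proteasome genes, and 23 rose when WT6 and WT7 were left out, with 11 without WT7 and 5 without WT6.

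**Figure D3:**
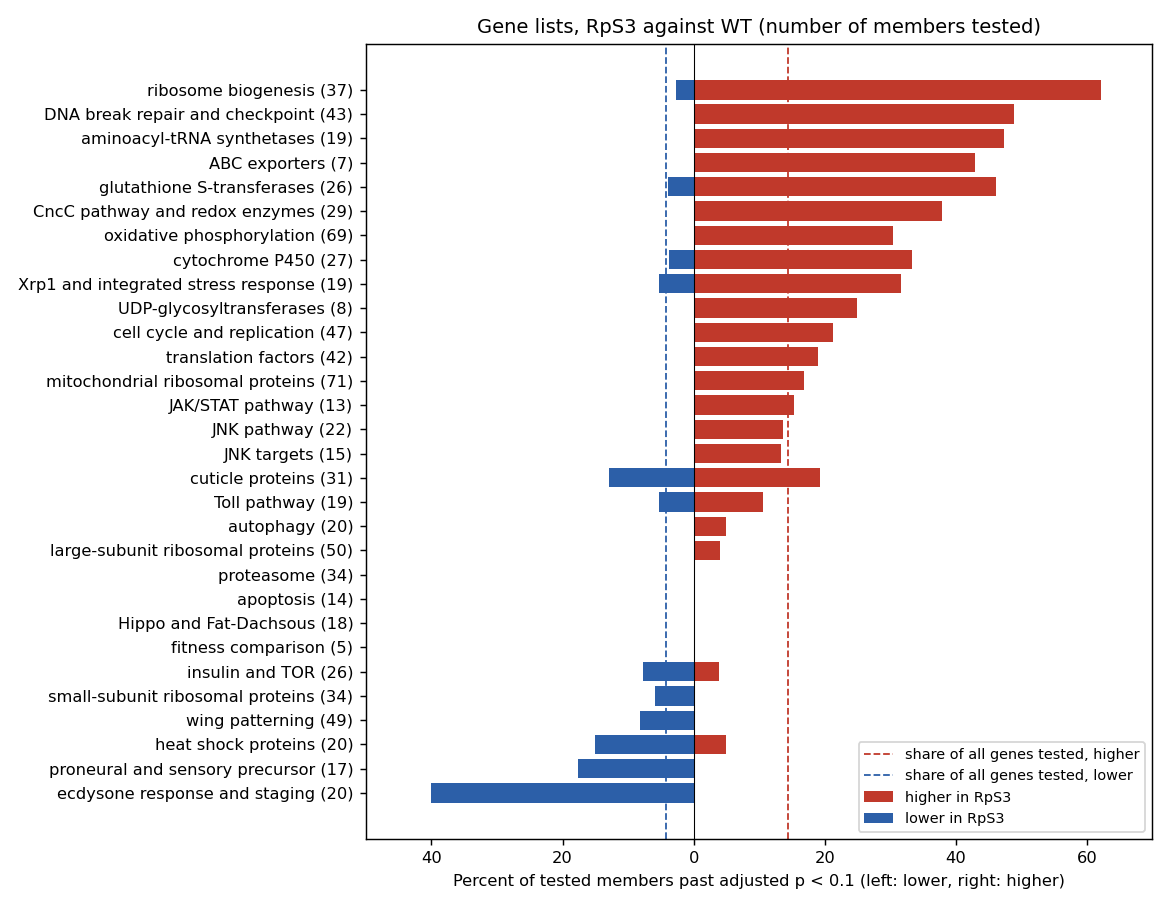
Bars give the percentage of the tested members of each list that passed an adjusted p under 0.1, to the right (red) where higher in RpS3 and to the left (blue) where lower, with the number tested in parentheses. Dashed lines mark the shares over all genes tested, 14.4% higher and 4.17% lower. Ribosome biogenesis (62.2%) and DNA repair (48.8%) reach far to the right, and ecdysone response genes (40.0%) far to the left.

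Ecdysone response genes fell in RpS3 discs. The steroid hormone ecdysone drives the end of larval life, when wandering larvae turn into pupae, and discs respond with early and early-late genes. Of 20 tested genes of the response and of staging 8 fell and none rose, which is 40.0% against 4.17% of all genes, and the median log2 fold change was -0.56. ImpE2, which encodes an abundant, apically secreted disc protein, lay at 1620.5, 2508 and 3091 FPKM in WT and at 757 and 1009 in RpS3 (log2 fold change -1.40 ± 0.21 (SE), adjusted p = 0.0012). ImpE1, another ecdysone-inducible disc gene, went from 42.96, 76.6 and 88.7 FPKM in WT to 19.5 and 23.1 (log2 fold change -1.57 ± 0.28 (SE), adjusted p = 0.0058).

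Some transcription factor genes of the response also fell. Blimp-1, an ecdysone-induced repressor, lay at 8.85, 23.9 and 28.1 FPKM in WT and at 7.09 and 5.70 in RpS3 (log2 fold change -1.41 ± 0.45 (SE), adjusted p = 0.075), br, the Broad-Complex, at 204, 309 and 353 FPKM and at 164 and 183 (log2 fold change -0.75 ± 0.17 (SE), adjusted p = 0.017), and Eip78C at 14.2, 21.1 and 27.2 FPKM and at 9.51 and 9.68 (log2 fold change -1.0020 ± 0.21 (SE), adjusted p = 0.012). Eip75B fell from a WT range of 31.00–48.6 FPKM to 24.03 and 29.3 (log2 fold change -0.59 ± 0.15 (SE), adjusted p = 0.027), and ImpE3 (-0.95) and Hr39 (-0.53) were the remaining falls. The receptor genes EcR and usp (0.094) and the early gene Eip74EF, at 21.4 and 19.5 FPKM against 19.1 to 25.5, did not pass. Hr3 (-1.35) and Hr4 (-1.28) had large negative values but did not pass.

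These genes also varied among the WT libraries. Blimp-1 was at 8.85, 10.6 and 12.4 FPKM in WT1, WT7 and WT8 and at 22.1 to 28.1 in the other 5, so that the 8 pools were not alike in this response. WT1, WT7 and WT8 were also the lowest WT libraries for Spn100A, a gene outside the list, at 43.9, 63.8 and 57.9 FPKM. The stage of the larvae within the wandering period was not recorded beyond the label, and its part in the falls was not tested. With 1 RpS3 library left out, 1 (without replicate 1) or 3 (without replicate 2) of the list fell, and 5 fell without WT2, without WT3 or without WT4. The median was -0.46 and -0.59 without RpS3 replicate 1 and 2. It was -0.66 after median of ratios scaling, where 8 fell.

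**Figure D4:**
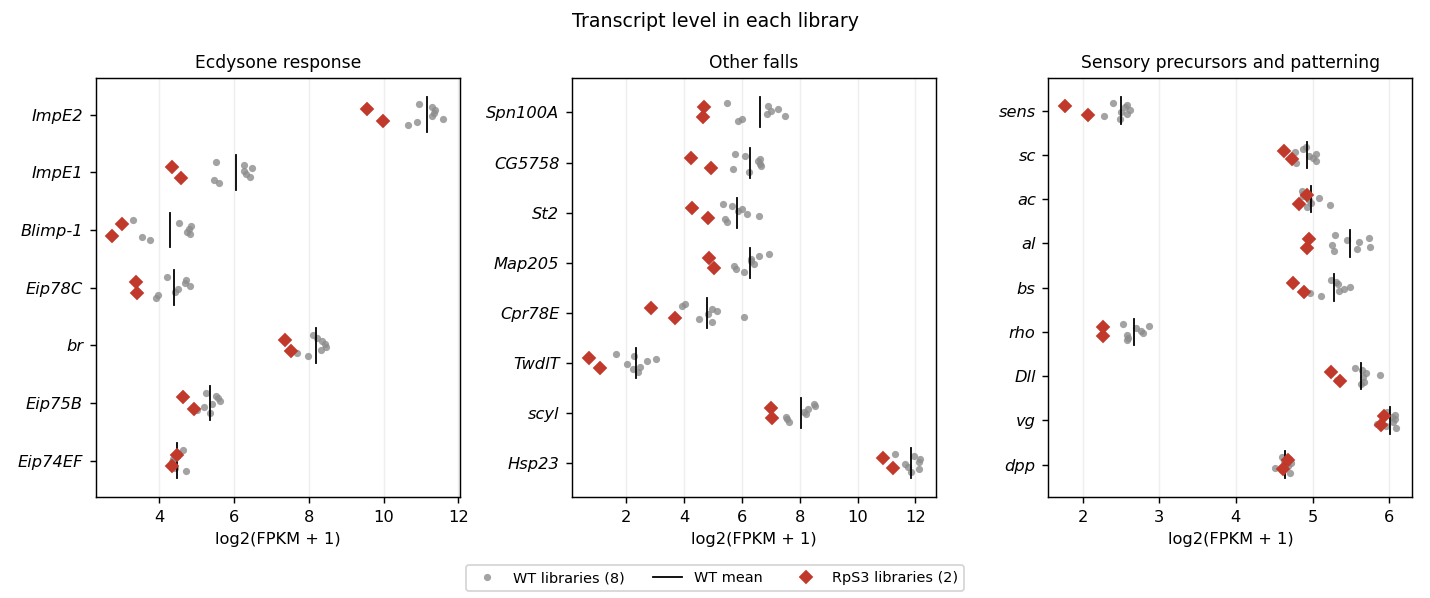
Levels as log2(FPKM + 1) of ecdysone response genes, other genes that fell, and sensory precursor and patterning genes, with 1 grey circle for each of 8 WT libraries, a black line at the WT mean and red diamonds for the 2 RpS3 libraries. The diamonds lie left of all circles for ImpE1, ImpE2, Blimp-1, br, Spn100A and CG5758, and among the circles for Eip74EF, vg and dpp.

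The largest falls outside that list were those of Spn100A, a serpin gene, from 43.9, 117 and 178 FPKM in WT to 25.03 and 23.9 in RpS3 (log2 fold change -1.94 ± 0.49 (SE), adjusted p = 0.038), and of CG5758, from 50.4, 83.3 and 99.7 FPKM to 18.1 and 29.4 (log2 fold change -1.68 ± 0.28 (SE), adjusted p = 0.0033). Map205, a microtubule-associated protein gene, fell from a WT range of 52.3–122 FPKM to 28.03 and 32.1, St2, a sulfotransferase gene, from 40.04–96.2 FPKM to 18.5 and 27.6, and CG34355 from 3.77–7.46 FPKM to 0.879 and 1.87. The remaining members of the 12 largest falls, Cpr78E, CG4928, CG15765 and uncNacbeta, had log2 fold changes of -1.54, -1.30, -1.23 and -1.23. These 12 were chosen for their size and for RpS3 libraries below all WT libraries, and the fall was to between 0.229 and 0.397 of the WT mean.

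Cuticle protein genes went both ways. Of 31 tested genes 6 rose and 4 fell (19.4% and 12.9%, against 14.4% and 4.17% of all genes), with Cpr49Ah from a WT range of 12.8–58.7 FPKM to 106 and 65.2 and Cpr47Ec from 0.238–1.21 FPKM to 6.43 and 2.90 among the rises, and Cpr78E from 14.2–66.6 FPKM to 6.17 and 11.8 and TwdlT from 2.12–7.08 FPKM to 0.619 and 1.11 among the falls. Another rise, Lcp65Ag2 (at most 0.663 FPKM in WT), entered the test through the RpS3 libraries alone and adds no support to this count. The balance turned to 2 higher and 6 lower with the length trend removed and to 4 and 5 with median of ratios scaling. The rise of Cpr49Ah did not pass against the yw libraries alone (adjusted p = 0.14), against single-run WT libraries (0.15), when any one of WT1 to WT6 was left out (0.10 to 0.15), or with median of ratios scaling (0.12) or the length trend removed (0.13). None of the list passed without RpS3 replicate 1. Without RpS3 replicate 2, without WT3 or without WT5, 2 fell.

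Heat shock protein genes had a median log2 fold change of -0.70 over 20 tested (-0.49 without the library labelled WT4). Of the 20, 3 fell (Hsc70-3, Hsp23 and Hsp27) and 1 rose (Hsc70-2 above), where 4.17% of all genes fell and 14.4% rose. The small heat shock protein genes Hsp23 and Hsp27, which are strongly expressed in discs and also respond to ecdysone, fell from 2486, 3829 and 4518 FPKM in WT to 1901 and 2403 in RpS3 (log2 fold change -0.79 ± 0.20 (SE), adjusted p = 0.029) and from 1539, 2373 and 2814 FPKM to 1354 and 1487 (log2 fold change -0.70 ± 0.19 (SE), adjusted p = 0.039). The stress-inducible Hsp70 genes had values from -0.71 (Hsp70Ba) to -0.92 (Hsp70Bb) and did not pass, and near-identical copies can share reads. Their levels differed widely between WT libraries, for Hsp70Aa from 0.837 to 232 FPKM, against 23.03 and 24.5 in RpS3. Hsp68 was at 2.02 to 124 FPKM in WT and at 8.16 and 10.3 in RpS3. The median of the list rests in part on these genes and does not show a fall across the list. None of the falls passed when either RpS3 replicate was left out, and 6 genes fell without WT1.

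Wing patterning genes had small differences. Of 49 tested genes 4 fell and none rose (8.16% lower, against 4.17%). They were al (log2 fold change -0.55 ± 0.14), bs (-0.46 ± 0.12), rho (-0.40 ± 0.11) and Dll (-0.33 ± 0.12), and al, a homeobox gene, went from a WT range of 37.1–52.8 FPKM to 30.00 and 29.4. The selector gene vg lay at 56.3, 64.8 and 67.03 FPKM in WT and at 60.04 and 58.5 in RpS3 (adjusted p = 0.45), and the morphogen gene dpp at 21.7, 24.2 and 25.3 FPKM and at 24.6 and 23.5 (adjusted p = 0.96). None of the 4 passed without RpS3 replicate 1 or without replicate 2, and 8 fell without WT7.

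All 17 tested genes of sensory organ precursors and of Notch signalling in them had a negative log2 fold change, where 5177 of all 8053 genes had a positive one. Of the 17, 3 fell (17.6%, against 4.17% of all genes). The zinc finger gene sens, which marks the precursor cell, lay at 3.87, 4.76 and 5.12 FPKM in WT and at 2.41 and 3.19 in RpS3 (log2 fold change -0.58 ± 0.12 (SE), adjusted p = 0.011). The Notch targets E(spl)m7-HLH and E(spl)m3-HLH fell by 0.33 and 0.30 on the log2 scale. The proneural gene sc was below all WT libraries, at 23.7 and 25.7 FPKM against 26.3 to 32.1, and did not pass (adjusted p = 0.11), and ac was at 29.5 and 27.4 against 28.2 to 36.5 (adjusted p = 0.55). The myoblast markers zfh1 (-0.64 ± 0.19) and Mef2 (-0.31 ± 0.087) were the 2 of 5 that fell (40.0%, against 4.17% of all genes), and the summed level of the 5 was 62.4 to 89.0 FPKM in WT and 66.6 and 57.9 in RpS3. Of these precursor genes, 0 and 1 passed without RpS3 replicate 1 and 2, 6 fell without WT7 and 12 with the length trend removed, and neither myoblast gene passed when either RpS3 replicate was left out.

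The fitness comparison list and the Hippo and Fat-Dachsous list had no call in the full comparison, where 18.6% of all genes passed. In a list of 5 genes the lack of a call says little. The fitness comparison list, fwe, SPARC, Myc, sas and Ptp10D, had no call among 5 tested in limma and none at an unadjusted p under 0.05. Of these, fwe, the gene of the Flower fitness protein, was at 63.6 and 64.5 FPKM against 58.9, 65.96 and 74.6 FPKM in WT (adjusted p = 0.67), and SPARC at 95.99 and 80.3 against 45.8, 66.4 and 102 FPKM (adjusted p = 0.23). Myc was at 34.3 and 32.99 against 26.4, 51.02 and 57.7 FPKM, a range in which 2 WT libraries were below both RpS3 libraries (adjusted p = 0.30). Without WT7, 1 gene of this list rose and 1 fell, and without WT6 and WT7 these were SPARC (log2 fold change 0.53, adjusted p = 0.027) and Myc (-0.61, adjusted p = 0.0016). The transcript of azot, a gene that marks cells for elimination, was listed at 0 in both RpS3 libraries and reached at most 0.207 FPKM in WT. Of 18 Hippo and Fat-Dachsous genes none passed in limma, with 2 at an unadjusted p under 0.05, and the coactivator gene yki was at 70.5 and 71.7 FPKM against 55.8 to 77.5. Without WT7, 1 Hippo gene rose and 2 fell, without WT6 1 rose, and without both 2 rose and 3 fell.

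Of 20 autophagy genes 1 rose (5.0%, below the 14.4% of all genes). It was ref(2)P, the p62 homologue that carries ubiquitinated cargo, from 41.9, 44.6 and 47.4 FPKM in WT to 58.9 and 54.8 in RpS3 (log2 fold change 0.34 ± 0.076 (SE), adjusted p = 0.016), while Atg1 and Atg8a overlapped the WT values. The call of ref(2)P did not pass without RpS3 replicate 1, and 2 autophagy genes rose without WT6 or without WT7. Of 26 insulin and TOR genes 1 rose, Lst8, a TOR complex subunit gene (0.55 ± 0.085), and 2 fell, scyl and foxo. These were 3.85% and 7.69% of the list, where 14.4% of all genes rose and 4.17% fell. The TOR inhibitor gene scyl lay at 185, 288 and 365 FPKM in WT and at 128 and 132 in RpS3 (log2 fold change -1.01 ± 0.26 (SE), adjusted p = 0.031), and foxo fell from a WT range of 13.4–17.6 FPKM to 12.5 and 12.2 (log2 fold change -0.31 ± 0.10 (SE), adjusted p = 0.069). The number of insulin and TOR genes that fell was 0 when either RpS3 replicate was left out, 1 without WT3, WT4 or WT5, 7 without WT6 and 4 without WT7.

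Some markers of tissues that may adhere to discs passed, in short lists. Of 7 larval muscle genes, 2 rose, Mlc2 (log2 fold change 1.18 ± 0.21 (SE), adjusted p = 0.0043) and Mlc1 (log2 fold change 0.73 ± 0.27 (SE), adjusted p = 0.0997), while their summed level was 158 and 167 FPKM in RpS3 against 124 to 203 in WT. Of 3 tracheal genes serp rose (log2 fold change 0.50 ± 0.11 (SE), adjusted p = 0.015), and the sum was 342 and 345 FPKM against 249 to 341, so that both RpS3 libraries were just above the highest WT library. The fat body list had a median log2 fold change of 0.73, with 5 of 6 genes above 0, where 5177 of all 8053 genes tested were. None of the 6 fat body, 4 haemocyte or 5 salivary gland genes tested passed in limma, where 18.6% of all genes did, with none at an unadjusted p under 0.05. The salivary gland genes summed to 25.7 and 2.76 FPKM in the 2 RpS3 libraries against 0.0914 to 39.3 in WT, so that these transcripts differed widely between pools of 1 genotype. None of these 3 rises passed without RpS3 replicate 1, 1 muscle gene rose without RpS3 replicate 2, WT2, WT4 or WT8, that of serp did not without replicate 2, and 2 fat body genes rose without WT6. The part of adhering tissue in the results above was not tested.

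Calls were not limited to weakly expressed genes. The 5 most abundant in WT among those that rose were CG43164, GstD1, Prx2, PCNA and eIF2beta, with WT medians of 315 to 1027 FPKM and rises of 1.39-fold to 1.65-fold. CG43164 lay at 894, 1027 and 1367 FPKM in WT and at 1638 and 1499 in RpS3 (log2 fold change 0.56 ± 0.15 (SE), adjusted p = 0.032). The 5 most abundant that fell were RpS27A, Hsp23, RpS3, Rack1 and ImpE2, to between 0.376 and 0.726 of the WT mean. These genes were taken from the calls by their level. Against the FRT82, ubi-GFP libraries alone, GstD1, eIF2beta and Rack1 did not pass in limma (adjusted p = 0.101, 0.124 and 0.116), and the others did.

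To see where the alleles differed, the RpS3 libraries were compared with those of RpS3*, the second allele, in a fit with WT. Of 8108 tested genes 44 (0.543%) differed, 21 higher and 23 lower in RpS3. Of the 1498 genes called against WT, 29 differed between the alleles (1.94%), and for the other 1469 no difference passed the threshold, which with 2 libraries per allele does not show that the alleles acted alike. An unadjusted p under 0.05 was seen for 515 genes. RpS3 itself was at 1262 and 1296 FPKM in RpS3*, against 1344 and 1314 in RpS3 (adjusted p of the difference = 0.9998).

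The largest difference was that of CG14072, at 0 and 0.122 FPKM in RpS3* near its WT level, against 51.9 and 39.8 in RpS3 (difference 5.45 on the log2 scale, adjusted p = 2.93e-10). Proc-R, a neuropeptide receptor gene, lay at 0.336 and 0.135 FPKM in RpS3* against 6.51 and 5.74 in RpS3 and 0.219 to 0.531 in WT (difference 2.53, adjusted p = 6.24e-06). Cyp6a17 was at 0 in both RpS3* libraries against 9.93 and 10.6 in RpS3 (difference 3.49). Cyp6g2 and Cyp6t3 were at 0.280 and 0.320 and at 0.366 and 0.639 in RpS3* (differences 2.15 and 1.98). CG42827, the gene near RpS3 described above, also belonged here (difference 2.33, adjusted p = 1.27e-05), as did bnl, an FGF ligand gene, with a mean of 9.58 FPKM in RpS3 against 1.55 in WT (difference 2.43). CG14072, Proc-R, Cyp6g2, Cyp6t3 and CG42827 reached 1 FPKM in the RpS3 libraries alone. They entered this test through the group in which they were high, so their p-values add no support.

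In the other direction, CG18063 was at 15.5 and 21.1 FPKM in RpS3* and at 0.0487 and 0 in RpS3, close to the 0 to 0.102 of WT (difference -4.22). It entered this test through the RpS3* libraries alone, so the test adds no support for it. Ilp8 was at 21.2 and 29.4 FPKM in RpS3* against 4.23 and 1.63 in RpS3, so that both alleles were above the WT maximum of 0.408 but to different extents (difference -2.81, adjusted p = 5.26e-05). The repair gene lig3 (difference -0.69) and Socs36E (-0.47) were also higher in RpS3*, by less. GstD4 (-2.09), GstD3 (-1.66) and GstD5 (-1.38), neighbours in the GstD cluster on 3R, were lower in RpS3 than in RpS3*, whereas GstE6, at 203 and 236 FPKM in RpS3*, did not differ past the threshold (adjusted p = 0.71).

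Xrp1 (adjusted p of the difference = 0.9998), agt (0.9998), Gadd45 (0.87) and ImpE2 (0.9998) did not differ past the threshold either. Of the 44 genes 11 lay on 3R, the arm of RpS3, 10 on 2R, 8 on 3L, 7 on 2L, 7 on X and 1 was not in the annotation used for arms. Both alleles were on FRT82B chromosomes, but only RpS3 carried ubi-GFP, so the allele, the marker and the rest of the genetic background cannot be told apart. The number of genes that differed was 20 and 11 without RpS3 replicate 1 and 2, and 16 and 13 without RpS3* replicate 1 and 2.

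**Figure D5:**
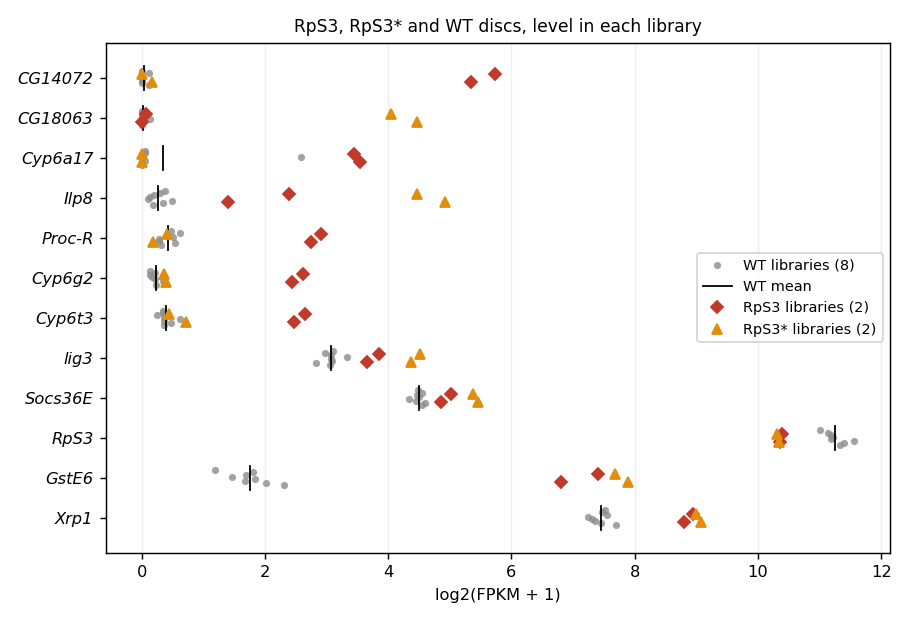
Levels of 12 genes as log2(FPKM + 1) on the x axis in 8 WT libraries (grey circles, black line at the mean), 2 RpS3 libraries (red diamonds) and 2 RpS3* libraries (orange triangles). CG14072, Cyp6a17, Proc-R, Cyp6g2 and Cyp6t3 are highest in the diamonds, CG18063 in the triangles, and RpS3, GstE6 and Xrp1 have diamonds and triangles on the same side of the circles.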

How the data were processed

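The deposited values are FPKM per gene, which the authors computed from RNA-seq reads of 50 pooled wing discs per sample. The submitters' processing notes name BWA 0.6.2 and the build dm3, and how reads matching several genes were assigned is not given in the sources used here. Implied depth was recovered from the smallest steps in FPKM. Names, arms and lengths came from the BDGP6.54 annotation, which held 13661 of 13955 gene IDs. A further 78 were named from the supplementary tables, names only. BDGP6.54 is not the build of the files.

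Columns were mapped to samples by title. The column header of WT1 names its run 1 only, although the sample description gives pooled runs, and 0 columns of other samples were left out. Differences were tested with limma 3.58.1 (R 4.3.3, statmod 1.5.0) on log2(FPKM + 1), with trended and robust variance, for genes that reached 1 FPKM in 2 or more compared libraries, and Benjamini-Hochberg adjusted p under 0.1 was called. RpS3 and WT libraries entered the first comparison, and RpS3, RpS3* and WT libraries the comparison of alleles. Genes under 1 FPKM in all WT libraries, among them CG14072, Ilp8, Cyp6g2, Cyp6t3, Cyp6a23, Mrp4, Proc-R and CG42827, entered the first through RpS3 alone. Their p-values rest on that entry and add no support. The same holds in the comparison of alleles for CG14072, Cyp6g2, Cyp6t3, Proc-R and CG42827, and for CG18063, which entered through RpS3* alone. The script was tested on simulated data. The named genes were RpS3, the 12 largest non-overlapping rises and falls at a mean of 5 FPKM or more, the 5 most abundant called genes per direction, core members and up to 4 leading calls of each list, and the 5 largest allele differences. Other genes were named after their values were seen. The members and gene lists were chosen with earlier results of these data known, and entries that did not belong to a list by gene identity were removed after values were seen. Of 554 symbols written, 16 were unmatched. Alternatives were other WT libraries, scalings, pseudocounts, filters, a block and leaving out each library. Sequences were not used here.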

Additional observations from a re-analysis of the deposited data

Results flagged for a closer look

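Of the 153 named genes, 140 reached 1 FPKM in at least 1 WT library. Among these, a single WT library lay far from the other 7 in 13 cases, by a gap test over the 8 WT libraries that flags about 1 in 20 groups by chance. WT7 was the highest for PCNA at 448 FPKM, Men at 12.9, ox at 148 and nclb at 88.9, in each case on the side of the RpS3 libraries. WT6 was the highest for CG15784 at 20.9 FPKM, Cpr78E at 66.6 and RpS27A at 5527, and the lowest for cnc at 18.3. The library labelled WT4 was the highest for Hsc70-2 at 17.8 FPKM, Cyp6a17 at 4.99 and scaf at 26.2. WT8 was the highest for rdog at 2.82 FPKM, and WT5 the lowest for Mef2 at 16.5.

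For 9 named genes the difference of RpS3 from WT was not that of RpS3*, by the test of the difference between the alleles on the log2(FPKM + 1) scale. RpS3 was above RpS3* by 5.45 for CG14072, 3.49 for Cyp6a17, 2.53 for Proc-R, 2.15 for Cyp6g2 and 1.98 for Cyp6t3. It was below RpS3* for CG18063 (-4.22), Ilp8 (-2.81), lig3 (-0.69) and Socs36E (-0.47). CG14072, Proc-R, Cyp6g2, Cyp6t3 and CG18063 entered this test through the higher group alone, so for them the differences are a description.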

How the results depend on the processing

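The number of genes called between RpS3 and WT (1498, of which 1162 higher and 336 lower) was 827 (637 and 190) at an adjusted p under 0.05, 2386 (1878 and 508) with all 19 libraries in one fit, and 4337 (3161 and 1176) with WT1 and WT2 as the only controls. Median of ratios scaling gave 652 higher and 516 lower, removal of the length trend 554 lower, and WT libraries with 1 run 747 higher. With alternatives chosen after seeing the data, it was 3481 (2528 and 953) without WT6 and WT7, and 831 (619 and 212) against the yw libraries with 1 run. Leaving out single libraries gave 135 to 2524 calls, 115 to 1911 higher and 20 to 613 lower. The labels share only a replicate number between groups (deviations of WT1 and RpS3 replicate 1 correlated at -0.107), and the replicate block, which used WT1 and WT2 only, gave 4065 calls (2972 and 1093). Between RpS3 and RpS3*, 44 genes became 69 with all 19 libraries and 11 to 20 with single mutant libraries left out. The same-numbered mutant libraries correlated at -0.222, and their replicate block gave 277 calls and the crossed pairing, added after seeing the data, 1073. Of 116 named genes that passed, 37 passed in every alternative that tested them (those added after seeing the data aside), 84 in all but those without an RpS3 library, and 0 changed sign. Genes such as CG14072 were not tested without an RpS3 library, so those alternatives did not count for them. With 2 RpS3 libraries, small changes of weakly expressed genes are beyond what this depth and replication can show, and the cause of the shifts between alternatives was not tested.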
